A study of Mus musculus with 6 samples.

Results

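The genes described here encode 34 amino acid transporters of mouse cells. They were taken as a list of named genes from 9 roles or families, and each was represented by its brightest array probe set, by mean over all arrays. All 34 were on the array, among 18194 genes with a probe set of their own, and 27 of them passed a filter on dim probe sets (a mean intensity of 73.5 or more), as did 12152 genes in all. Values are linear array intensities, whose differences between genes are not reported, and an intensity below a floor of 19.335 was set to that floor for log2 values. The samples were YFP+ luminal mammary epithelial cells (MECs; Lin-CD24+CD29lo) sorted from 6 adult virgin females of a mixed B6/129/FVB background, with 1 array per mouse. Of these mice, 3 were MMTV-Cre;Runx1L/L;R26Y (Runx1-null) and 3 were MMTV-Cre;Runx1+/+;R26Y (Runx1-WT), so that both groups carried the Cre transgene and the reporter and differed in the floxed Runx1 allele. By the study's methods the genotypes came from the same litters, but no source used here ties a mouse to its litter. Runx1 encodes a transcription factor that the study removed to learn what luminal cells need it for. MMTV-Cre acts in a part of the MECs, and YFP reports recombination of the reporter and not of Runx1 itself, so YFP+ cells of Runx1L/L mice can retain a Runx1 allele. The labels carry animal numbers that fall into a lower range (Runx1-WT and Runx1-null mice 1 and 2) and an upper range (mouse 3 of each genotype), and what the ranges stand for is not known here.

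Amino acids cross membranes through carriers that differ in substrate, driving force and place. Sodium-coupled carriers concentrate amino acids in the cell, exchangers trade 1 amino acid for another, and heteromeric transporters pair a light chain, which carries out transport, with a heavy chain that brings it to the surface. Further carriers sit on lysosomes, where amino acid supply is sensed by mTORC1, and on the inner membrane of mitochondria. The mammary epithelium is known for drawing large amounts of amino acids from blood when it makes milk, and several transporter genes are known targets of ATF4, the transcription factor induced when amino acids run short.

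The labelled cell type was checked by 6 luminal markers (Krt8, Krt18, Krt19, Epcam, Cdh1 and Cd24a), all of which passed the filter. Their summed intensity, 65750 to 70120 in the Runx1-WT mice and 66710 to 74310 in the Runx1-null mice, overlapped between the groups. Of the markers of other cells on the array, the filter was passed by 6 of 8 for basal cells and 3 of 6 for leukocytes. It was passed by 6 of 6 for stroma, 4 of 5 for endothelium and 1 of 4 for adipocytes (5 listed). The adipocyte marker that passed was Fabp4, and Adipoq, Lep and Cidec were at 7 to 47. The sums for basal cells, leukocytes, stroma and adipocytes overlapped between the groups. The sum of 5 endothelial markers was 659 to 871 in the Runx1-WT mice and 391 to 629 in the Runx1-null mice, without overlap. Singly, only Kdr did not overlap (170 to 353 against 129 to 152), and the 4 that passed the filter had log2 differences below 0. The stromal sum was 4581 for Runx1-null mouse 3, and the other mice had 10675 to 13641. The leukocyte sum was 2617 for Runx1-WT mouse 3, and the other mice had 557 to 917. Singly, Lyz2 (1894, where the others had 269 to 569), Cd3e, Ptprc and Cd79a were highest in that mouse. Csf1r was lowest there (155, where the others had 194 to 321), and Itgam lay below the floor in it. No marker on the array lay below the intensity floor on every array, but Itgam did so on 5 of them and Cd79a and Cidec on 4. The part of these cells in the results was not tested. Gapdh differed between its 3' and 5' control probe sets, a sign of RNA quality. The log2 difference was 0.459 to 0.466 in Runx1-WT and 0.473 to 0.609 in Runx1-null mice, without overlap. Its part in the results was not tested. The same difference for actin was 0.74 in Runx1-null mouse 3 and 0.44 to 0.52 in the other mice, and this mouse also had the lowest median intensity (106.3, where the others had 129.1 to 163.4) and the largest share of values below the floor (22.3%, where the others had 18.8% to 20.6%). Runx1 itself had overlapping values on all of its 6 probe sets, the brightest at 4082, 3855 and 2015 for the Runx1-WT mice and 3473, 4820 and 2277 for the Runx1-null mice, and where these probes lie relative to the floxed exon was not analysed here. By qRT-PCR, a different measure, the study reported loss of Runx1 expression in YFP+ MECs of Runx1L/L females. It found Runx1 significantly reduced in YFP+ luminal progenitors, and reduced only slightly in YFP+ mature luminal cells.

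No amino acid transporter gene passed the test between Runx1-null and Runx1-WT luminal cells, and their differences had both signs. Of the 27 tested, 9 had a log2 difference (Runx1-null minus Runx1-WT) above 0 and 18 below, or 33.3% above 0 where 44.6% of all tested genes lay above it. After median scaling of the arrays 12 lay above 0, where 64.7% of all genes did. The median difference of the transporters was -0.11, and that of all tested genes was -0.02. Limma called 0 of the 27 at a Benjamini-Hochberg adjusted p under 0.05, where it called 0% of all genes tested. At an unadjusted p under 0.05 it gave 1 transporter, Slc3a2, where it gave 1.93% of all genes. No overlap was seen for Slc3a2, higher in every Runx1-null mouse (2.08% of all genes did this), and for Slc36a1, lower in every Runx1-null mouse (3.47% of all genes), which makes 2 of 27 against 5.55% of all genes in either direction. With the mean of all probe sets of a gene, 5 of 27 did not overlap, against 5.71% of all genes, and without Runx1-WT mouse 3, 10 of 27 did not, against 25.7% of all genes. In sorted cells measured in bulk, fewer cells of a type and less RNA per cell cannot be told apart.

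**Figure D1:**
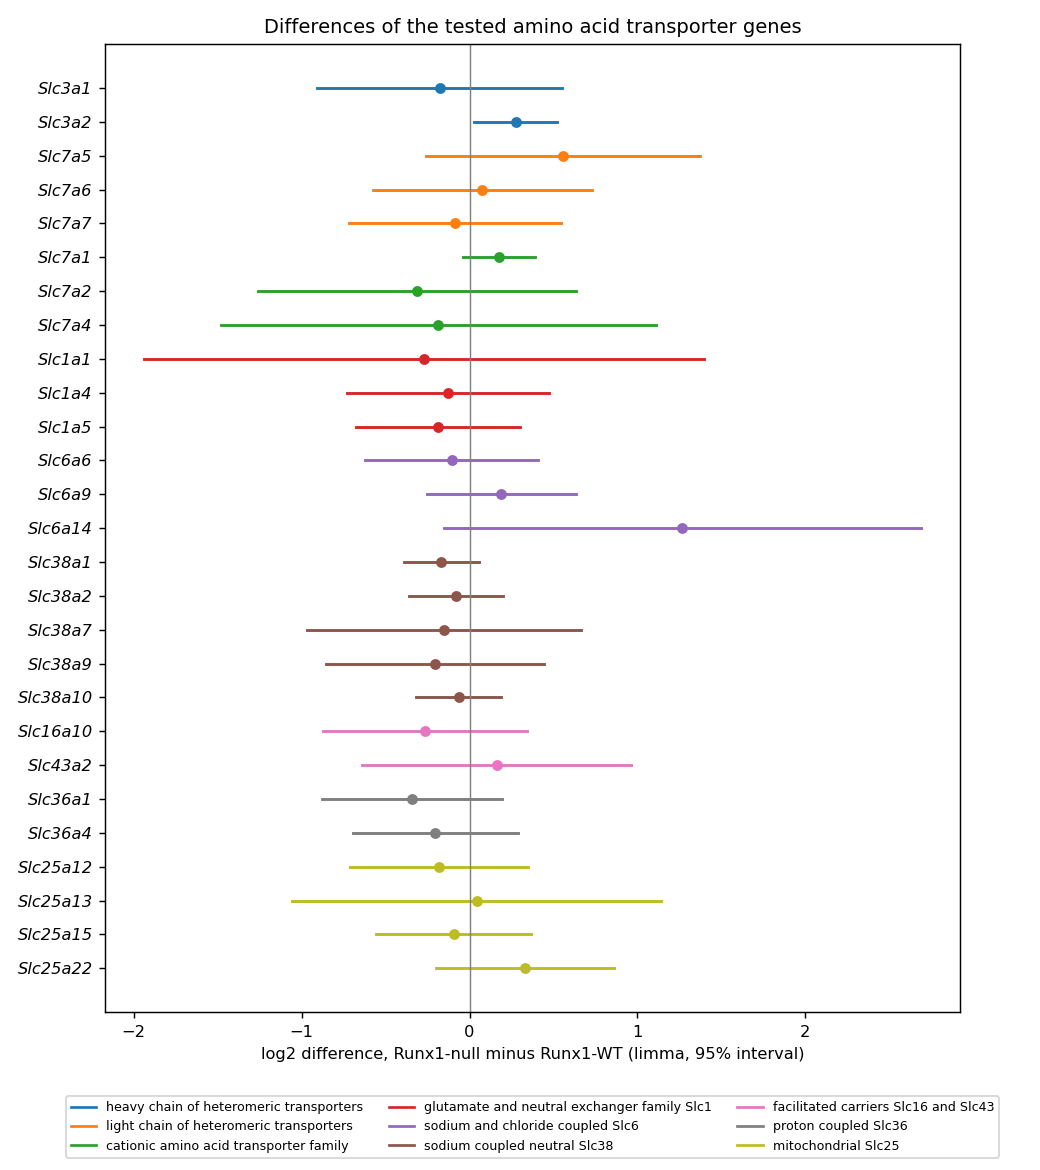
Log2 difference, Runx1-null minus Runx1-WT, of each of the 27 tested amino acid transporter genes (points) with its 95% interval from limma (lines), coloured by role or family. The interval of Slc3a2, from 0.03 to 0.52, is the only one that does not include 0.

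The heavy chain gene Slc3a2 was higher in every Runx1-null mouse. Slc3a2 encodes the CD98 heavy chain, the surface partner of several SLC7 light chains. Its intensity was 4435, 3640 and 3702 in Runx1-WT mice 1, 2 and 3 and 4586, 4809 and 4794 in Runx1-null mice 1, 2 and 3. The lowest Runx1-null mouse lay just above Runx1-WT mouse 1, and the Runx1-null mice spread less. The means were 3926 ± 442 (SD, n = 3) and 4730 ± 124 (SD, n = 3), which is a log2 difference of 0.27 (standard error 0.10, adjusted p = 0.9997 from limma). The exact permutation test over mice, two-sided, gave p = 0.1, and groups of 3 mice can give no smaller p. The difference ran from 0.22 to 0.37 without each mouse in turn and was 0.22 for the 4 mice with lower animal numbers and 0.37 for the 2 with upper numbers. Its unadjusted p was no longer under 0.05 after median scaling or with the lower animal numbers alone. Nor was it without Runx1-WT mouse 2 or 3 or any 1 of the Runx1-null mice.

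The other heavy chain gene, Slc3a1, encodes the partner of the cystine and basic amino acid carrier of kidney and gut. It ran from 332 to 456 among Runx1-WT mice and from 263 to 532 in Runx1-null mice, with -0.18 as its log2 difference (standard error 0.31). It was highest in Runx1-null mouse 3 and lowest in Runx1-null mouse 1. All Runx1-WT values lay between these.

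The start of Slc3a2 is shown because, of the tested heavy and light chain genes, it alone had groups that did not overlap. Its window, from 250 bases before the RefSeq transcript start to 50 after it, lies at chr19:8713848-8714147 on the minus strand of GRCm38.p6 and is written 5′ to 3′ in the direction of transcription. Capitals mark matches to a RUNX motif (TGTGGT or TGCGGT) or to a motif that ATF4 binds together with C/EBP factors (TGATGNAA), each searched on both strands. In Slc3a2 they spell the reverse complement of TGTGGT, 138 bases before the start.
Slc3a2: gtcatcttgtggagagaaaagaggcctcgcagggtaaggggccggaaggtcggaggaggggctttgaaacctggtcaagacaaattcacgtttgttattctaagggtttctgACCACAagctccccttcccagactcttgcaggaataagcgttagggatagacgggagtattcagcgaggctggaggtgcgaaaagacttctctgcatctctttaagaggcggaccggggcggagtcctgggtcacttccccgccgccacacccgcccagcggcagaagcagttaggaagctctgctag

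A RUNX match was found in 9 of 40 such windows of the transporters, or 22.5%, and in 22.4% of all 32851 windows. It was found at 7 of the 26 transporters with a window in the table, at the start of Slc3a2, Slc36a1, Slc38a7, Slc43a2, Slc6a9, Slc7a6 and Slc7a8. The 2 windows of Slc7a6 overlap and share a match. The ATF4 motif was found in 4 of the 40 windows, or 10%, and in 3.97% of all windows. These were windows of Slc1a4, Slc7a11 and Slc7a7, the last with 2 windows that share a match. A match is a description of the letters and not a bound site.

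Among the light chain genes, Slc7a5 had the highest difference and did not separate the groups. Slc7a5 encodes the carrier of large neutral amino acids such as leucine and pairs with the CD98 heavy chain. Its intensity was 2141, 1272 and 3565 in Runx1-WT mice 1, 2 and 3 and 3057, 3344 and 3031 in Runx1-null mice 1, 2 and 3. All Runx1-null mice lay above Runx1-WT mice 1 and 2 and below Runx1-WT mouse 3, which was the highest of all. The means were 2326 ± 1158 (SD, n = 3) and 3144 ± 174 (SD, n = 3), which is a log2 difference of 0.56 (standard error 0.34, 95% interval -0.26 to 1.37). Leaving out Runx1-WT mouse 2 gave 0.18 and leaving out Runx1-WT mouse 3 gave 0.93, and the difference was 0.95 among lower and -0.23 among upper animal numbers. Runx1-WT mouse 3 was also the mouse with the high leukocyte sum, whose part in the result was not tested.

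**Figure D2:**
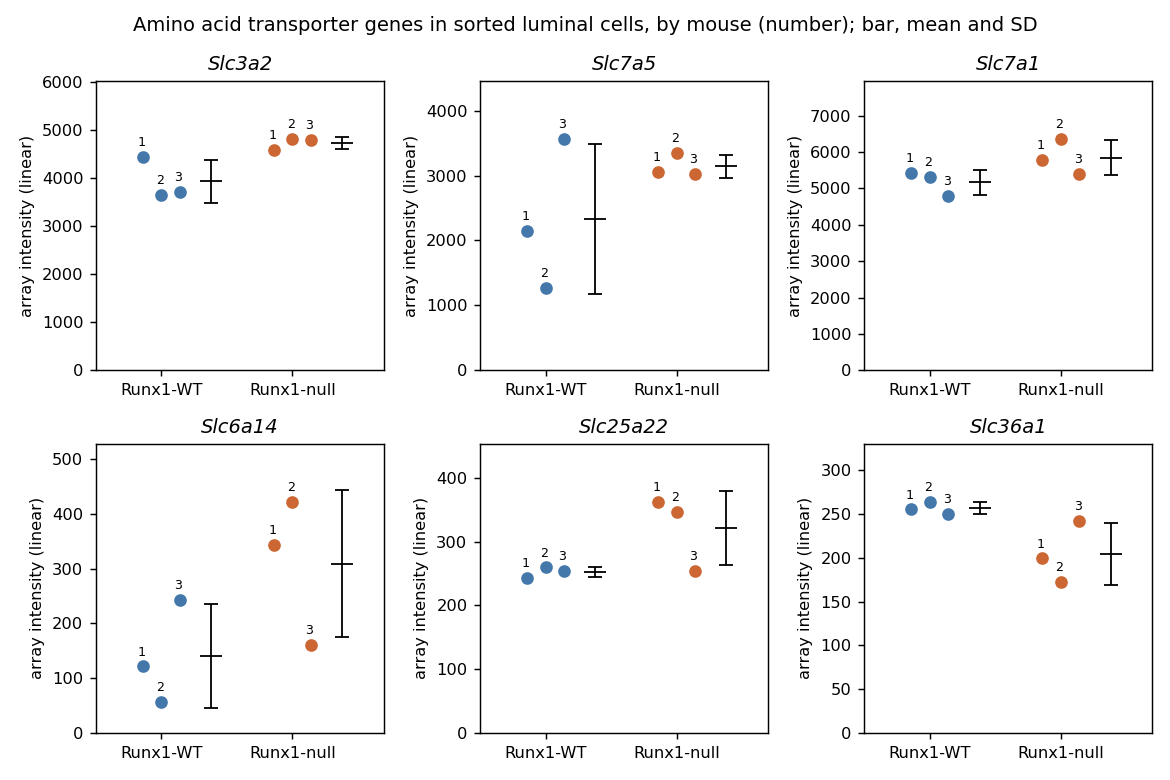
Linear array intensity of 6 amino acid transporter genes in each mouse (points, numbered by mouse), with the mean and SD of each genotype beside them (bars, n = 3 mice). The groups are apart for Slc3a2 (4586 to 4809 against 3640 to 4435) and Slc36a1 (172 to 243 against 251 to 264) and overlap for the other genes.

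Slc7a6 and Slc7a7, which encode exchangers of basic for neutral amino acids and also pair with CD98, had differences of 0.08 (standard error 0.28) and -0.08 (standard error 0.27), and the sign of Slc7a7 turned after median scaling (0.01). Slc7a6 was lowest in Runx1-WT mouse 2, at 596, and highest in Runx1-WT mouse 3, at 1140, as Slc7a5 was. Slc7a8 and Slc7a11 did not pass the filter. Slc7a8, another neutral amino acid carrier, was at 28 to 50 in the Runx1-WT mice and 36 to 70 in the Runx1-null mice. Slc7a11 encodes the cystine and glutamate exchanger that feeds glutathione synthesis and is a known ATF4 target. It was at 45, 56 and 19 in Runx1-WT mice 1, 2 and 3 and at 45, 58 and 20 in Runx1-null mice 1, 2 and 3, so that no difference was detectable at this level, and the value of Runx1-WT mouse 3 lay below the floor. Its window is shown because it holds 2 matches to the ATF4 motif, 66 and 47 bases before the start and on opposite strands (chr3:50443564-50443863, minus strand, GRCm38.p6, capitals as above).
Slc7a11: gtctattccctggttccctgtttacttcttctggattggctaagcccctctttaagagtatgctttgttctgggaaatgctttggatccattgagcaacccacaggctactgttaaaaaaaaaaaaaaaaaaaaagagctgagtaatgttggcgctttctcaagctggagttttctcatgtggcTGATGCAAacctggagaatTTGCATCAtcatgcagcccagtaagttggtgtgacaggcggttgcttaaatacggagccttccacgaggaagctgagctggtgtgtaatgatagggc

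Of the cationic amino acid transporter family, which carries arginine, lysine and ornithine, Slc7a1 had the steadiest values and Slc7a2 and Slc7a4 some of the widest ranges. Slc7a1, the broadly expressed member, was at 5430, 5315 and 4787 in Runx1-WT mice 1, 2 and 3 and at 5789, 6366 and 5404 in Runx1-null mice 1, 2 and 3. Only Runx1-null mouse 3 fell within the Runx1-WT range, just under Runx1-WT mouse 1. The means were 5178 ± 343 (SD, n = 3) and 5853 ± 484 (SD, n = 3), which is a log2 difference of 0.18 (standard error 0.09), and its second probe set above the filter gave 0.39. The difference was 0.18 among lower and 0.17 among upper animal numbers and 0.11 to 0.23 without each mouse in turn.

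Slc7a2 encodes an arginine carrier that is induced in some cells by inflammation. Its intensity was 7006, 7180 and 3912 in Runx1-WT mice 1, 2 and 3 and 2694, 5066 and 7548 in Runx1-null mice 1, 2 and 3. The groups overlapped, as the highest and the lowest mouse were both Runx1-null. The log2 difference was -0.31 (standard error 0.40), and it was -0.94 among lower animal numbers, 0.95 in the upper and 0.09 without Runx1-null mouse 1. The difference of all 4 of its probe sets lay below 0, from -0.76 to -0.31.

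Slc7a4, a relative whose substrate is unsettled, followed the same mice and was named after its values were seen. It was at 928, 1095 and 368 for the Runx1-WT mice and 332, 756 and 1014 for the Runx1-null mice 1, 2 and 3 (log2 difference -0.19, standard error 0.55). Both genes were lowest in Runx1-null mouse 1 and Runx1-WT mouse 3. Of 6 mature luminal markers listed, 4 were on the array (Esr1, Pgr, Foxa1 and Cited1). Their summed intensity was also lowest in these mice, at 13104 and 15406 against 19013 to 24295 in the others. Singly, Esr1 and Pgr were lowest in these mice, but Cited1 was lowest in Runx1-null mouse 3 (1372). Foxa1 was lower in Runx1-null mouse 2 (4644) than in Runx1-WT mouse 3 (5127). The part of such cells in the result was not tested. Slc7a3, a carrier best known from brain, did not pass the filter and was at 37 to 48 in the Runx1-WT mice and 37 to 47 in the Runx1-null mice.

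The Slc1 family holds carriers of glutamate and exchangers of small neutral amino acids. Slc1a1, a glutamate, aspartate and cysteine carrier, had one of the widest ranges over mice of all the transporters. Its intensity was 5224, 1260 and 4881 in Runx1-WT mice 1, 2 and 3 and 1179, 5209 and 2983 in Runx1-null mice 1, 2 and 3. Runx1-WT mouse 2 and Runx1-null mouse 1 were low and the 2 highest mice were 1 of each genotype, with a 4.43-fold range over all mice. The log2 difference was -0.27 (standard error 0.70), from -0.94 without Runx1-WT mouse 2 to 0.31 without Runx1-null mouse 1. Its 3 probe sets gave -0.42 to -0.27.

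Slc1a4 and Slc1a5 encode neutral exchangers that carry serine, alanine and, for Slc1a5, glutamine, and both are known ATF4 targets. Slc1a4 ran from 3841 to 5223 among Runx1-WT mice and from 2850 to 5717 in Runx1-null mice (log2 difference -0.13, standard error 0.25). Slc1a5 ran from 416 to 582 and from 395 to 437 (log2 difference -0.19, standard error 0.21), highest in Runx1-WT mouse 3, and -0.04 without that mouse. The mean of its 2 probe sets, of which the second lay below the filter, gave 0.15. Slc1a3, the glutamate carrier of glia, did not pass the filter, at 40 to 43 and 23 to 77. The window of Slc1a4 is shown as the one of a tested ATF4 target that holds the ATF4 motif, from 4 bases before the start and across it (chr11:20332664-20332963, minus strand, GRCm38.p6).
Slc1a4: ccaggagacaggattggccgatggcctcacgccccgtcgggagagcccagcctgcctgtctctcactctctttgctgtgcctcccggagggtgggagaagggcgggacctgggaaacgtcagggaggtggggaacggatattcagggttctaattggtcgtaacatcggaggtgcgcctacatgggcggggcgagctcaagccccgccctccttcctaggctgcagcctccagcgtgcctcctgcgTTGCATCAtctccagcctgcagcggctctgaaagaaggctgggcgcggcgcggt

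Of the sodium and chloride coupled Slc6 carriers, Slc6a14 had the highest log2 difference of all tested transporters, with wide spread. Slc6a14 encodes a carrier of nearly all neutral and basic amino acids. Its intensity was 121, 57 and 243 in Runx1-WT mice 1, 2 and 3 and 344, 422 and 161 in Runx1-null mice 1, 2 and 3. Runx1-null mice 1 and 2 lay above all Runx1-WT mice, and Runx1-null mouse 3 lay within their range. The means were 140 ± 94.5 (SD, n = 3) and 309 ± 134 (SD, n = 3), which is a log2 difference of 1.27 (standard error 0.60, 95% interval -0.15 to 2.69, adjusted p = 0.9997 from limma). The exact permutation test, two-sided, gave p = 0.2. The dimmer probe set gave 0.36 and ordered the mice otherwise. It was at 69, 76 and 89 in Runx1-WT mice 1, 2 and 3 and at 88, 83 and 137 in Runx1-null mice 1, 2 and 3. The difference of Slc6a14 was 2.20 among lower and -0.59 among upper animal numbers. It was 0.73 with Runx1-WT mouse 2 left out and 1.78 with Runx1-WT mouse 3 left out. Its unadjusted p fell under 0.05 with quantile normalization, median scaling, the mean of all probe sets, lower animal numbers alone, and without Runx1-WT mouse 3 or Runx1-null mouse 3, and its adjusted p did not in any of these.

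Runx1-WT mouse 2 was the lowest mouse for 5 of the 27 transporters, Slc3a2, Slc7a5, Slc7a6, Slc6a14 and Slc43a2, and for 25.1% of all tested genes. The summed intensity of 5 luminal progenitor markers (Kit, Cd14, Elf5, Aldh1a3 and Itga2) was also lowest there, at 16693. The other mice had 21655 to 24271. Kit, Cd14 and Elf5 were each lowest in Runx1-WT mouse 2. Aldh1a3 was lowest in Runx1-WT mouse 3 (5668), and Itga2 in Runx1-null mouse 3 (369). The part of progenitor cells in the result was not tested. Slc6a9, a glycine carrier and known ATF4 target, was at 630 to 726 in the Runx1-WT mice and 669 to 899 in the Runx1-null mice (log2 difference 0.19, standard error 0.19). Slc6a6, which takes up taurine, was at 1474 to 1688 and 1122 to 1892 (log2 difference -0.11, standard error 0.22). The other 3 probe sets of Slc6a6, all dimmer, gave -0.76 to -0.38, and each was lower in every Runx1-null mouse. The brightest of these was at 1426 to 1499 in the Runx1-WT mice and 968 to 1344 in the Runx1-null mice. With the mean of all probe sets the difference of Slc6a6 was -0.47 (limma, unadjusted p = 0.044, adjusted p = 0.9996). In that run 268 of 12152 genes had an unadjusted p under 0.05.

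All 5 tested genes of the Slc38 family, sodium-coupled carriers of glutamine and other small neutral amino acids, had log2 differences below 0, from -0.20 to -0.06, but Slc38a2 (0.01) and Slc38a10 (0.03) lay above 0 after median scaling. Slc38a1, a glutamine carrier, was at 5308, 5142 and 4977 in Runx1-WT mice 1, 2 and 3 and at 4135, 5012 and 4625 in Runx1-null mice 1, 2 and 3. Runx1-null mice 1 and 3 lay below all Runx1-WT mice and Runx1-null mouse 2 lay within their range. The means were 5142 ± 165 (SD, n = 3) and 4591 ± 440 (SD, n = 3), which is a log2 difference of -0.17 (standard error 0.09, 95% interval -0.39 to 0.05).

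Slc38a2, the carrier that cells induce when amino acids run short, was at 3323 to 4004 in the Runx1-WT mice and 3119 to 3505 in the Runx1-null mice, a log2 difference of -0.08 (standard error 0.12, 95% interval -0.36 to 0.20). The interval leaves out a 2-fold change in either direction, and the probe sets of this gene gave differences of both signs, from -0.10 to 0.12. Slc38a9 encodes a lysosomal carrier that reports arginine to mTORC1. It was at 562, 488 and 304 in Runx1-WT mice 1, 2 and 3 and at 344, 380 and 417 in Runx1-null mice 1, 2 and 3. The Runx1-null mice all lay between Runx1-WT mouse 3 and Runx1-WT mouse 2, with a log2 difference of -0.20 (standard error 0.27). Slc38a7, a lysosomal glutamine carrier, and Slc38a10 had differences of -0.15 (standard error 0.34) and -0.06 (standard error 0.11). Slc38a3 and Slc38a4, known from liver, did not pass the filter. Slc38a3 was at 56 to 87 in the Runx1-WT mice and 50 to 55 in the Runx1-null mice, without overlap. With no filter 4.95% of all genes did not overlap, and the dimmer probe set of Slc38a3 overlapped (log2 difference -0.01). Slc38a4 was at 25 to 42 and 10 to 30.

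The lysosomal and proton-coupled gene Slc36a1 was lower in every Runx1-null mouse. It encodes a carrier that lets small neutral amino acids leave the lysosome. Its intensity was 255, 264 and 251 in Runx1-WT mice 1, 2 and 3 and 199, 172 and 243 in Runx1-null mice 1, 2 and 3. The Runx1-WT mice lay close together and Runx1-null mouse 3 lay just below them. The means were 257 ± 7.04 (SD, n = 3) and 205 ± 35.5 (SD, n = 3), which is a log2 difference of -0.34 (standard error 0.23, 95% interval -0.88 to 0.19, adjusted p = 0.9997 from limma). The exact permutation test, two-sided, gave p = 0.1, the smallest p possible, and the difference was -0.49 among lower and -0.05 among upper animal numbers. Slc36a4, a relative with high affinity for proline and tryptophan, was at 1885 to 2991 and 1812 to 2379 (log2 difference -0.20, standard error 0.21). The start of Slc36a1 is shown because, of the 27 tested transporters, it alone was lower without overlap on its brightest probe set (chr11:55204090-55204389, plus strand, GRCm38.p6). It holds TGTGGT, in capitals, 134 bases before the start.
Slc36a1: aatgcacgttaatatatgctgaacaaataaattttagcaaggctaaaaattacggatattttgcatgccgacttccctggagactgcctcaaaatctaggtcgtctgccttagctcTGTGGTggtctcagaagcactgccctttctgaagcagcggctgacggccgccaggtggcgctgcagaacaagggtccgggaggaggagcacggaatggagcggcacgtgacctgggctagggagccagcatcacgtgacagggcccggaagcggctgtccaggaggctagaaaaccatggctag

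The facilitated carriers, which let aromatic or branched amino acids flow down their gradient, overlapped between the genotypes. Slc16a10, the carrier of aromatic amino acids, was at 157, 168 and 201 in Runx1-WT mice 1, 2 and 3 and at 150, 169 and 120 in Runx1-null mice 1, 2 and 3. The groups overlapped (log2 difference -0.27, standard error 0.26). Slc43a2, a carrier of leucine and other large neutral amino acids, ran from 1841 to 3843 among Runx1-WT mice and from 2001 to 3941 in Runx1-null mice (log2 difference 0.16, standard error 0.34), and its 3 probe sets gave differences of both signs. Slc43a1, its relative, did not pass the filter, at 35 to 58 and 35 to 49.

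Among the mitochondrial carriers, Slc25a22, which brings glutamate into the matrix, was higher in Runx1-null mice 1 and 2. Its intensity was 244, 260 and 254 in Runx1-WT mice 1, 2 and 3 and 363, 347 and 255 in Runx1-null mice 1, 2 and 3. Runx1-null mouse 3 lay within the narrow Runx1-WT range. The means were 253 ± 8.15 (SD, n = 3) and 322 ± 58.4 (SD, n = 3), which is a log2 difference of 0.33 (standard error 0.22, adjusted p = 0.9997 from limma), which was 0.50 among lower animal numbers and 0.0019 in the upper. Slc25a12 and Slc25a13 encode aspartate and glutamate exchangers of the malate-aspartate shuttle. Slc25a13 ran from 1976 to 3685 among Runx1-WT mice and from 1469 to 4476 in Runx1-null mice, the highest being Runx1-null mouse 2 and the lowest Runx1-null mouse 3 (log2 difference 0.04, standard error 0.46). Slc25a12 ran from 709 to 1030 and from 667 to 908 (log2 difference -0.18, standard error 0.22). Slc25a15, the ornithine carrier of the urea cycle, had a difference of -0.09 (standard error 0.19).

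Which mouse was lowest varied between the transporters. The lowest of the 6 mice was Runx1-null mouse 1 for 10 of the 27 tested transporters, where it was the lowest for 23.9% of all tested genes. These 10 were Slc3a1, Slc7a7, Slc7a2, Slc7a4, Slc1a1, Slc1a4, Slc38a1, Slc38a10, Slc36a4 and Slc25a12. Runx1-WT mouse 2 and Runx1-null mouse 3 were each the lowest for 5, and for 25.1% and 24.3% of all tested genes. The median SD of the log2 values over the 6 mice was 0.28 for the transporters and 0.27 for all tested genes.

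**Figure D3:**
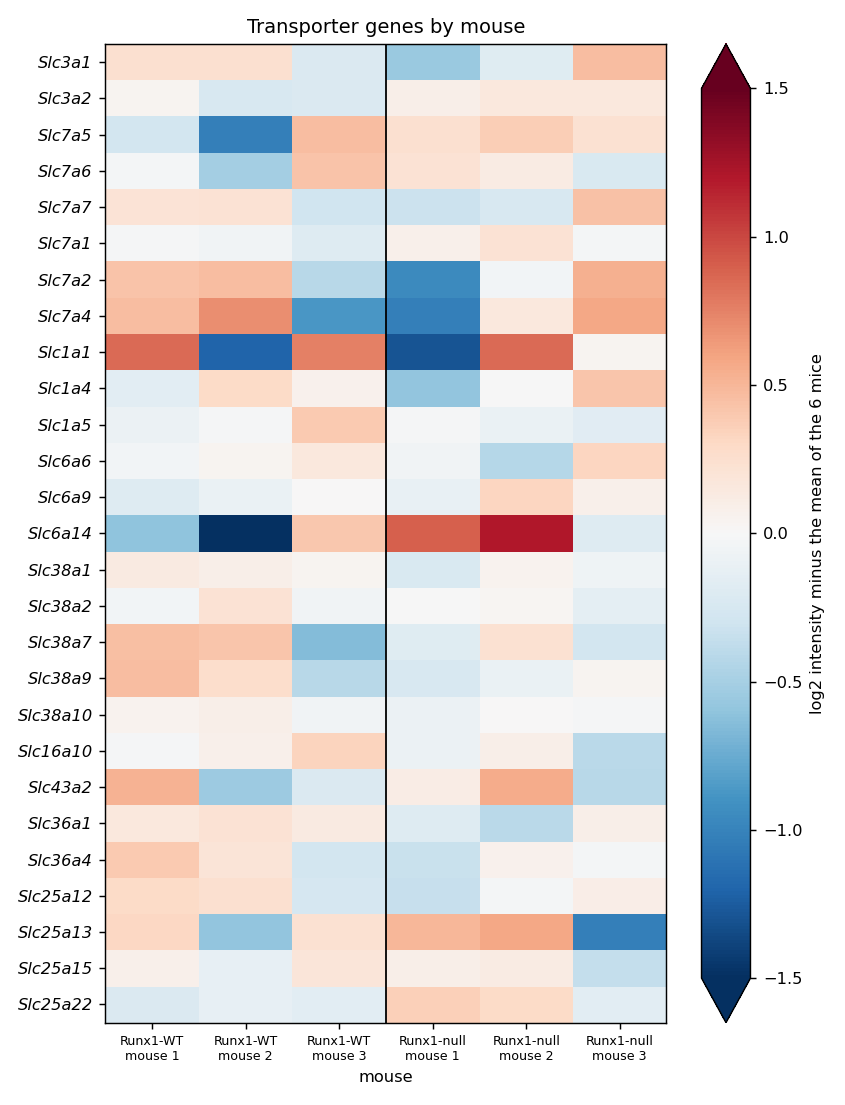
Log2 intensity of each of the 27 tested transporter genes in each mouse, minus the gene's mean over the 6 mice (colour, which stops at 1.5 in either direction), with Runx1-WT mice left of the line and Runx1-null mice right of it. Slc7a2 and Slc7a4 are low in Runx1-null mouse 1 and Runx1-WT mouse 3, and the value of Slc6a14 in Runx1-WT mouse 2 lies beyond the end of the colour scale.

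The difference between genotypes also depended on which mice were set against each other. For 17 of the 27 transporters (63%) the differences of the 2 ranges had opposite signs, as they did for 68.7% of all tested genes. Both ranges lay above 0 for Slc3a2, Slc7a1, Slc6a9 and Slc25a22. They lay below 0 for Slc1a1, Slc1a5, Slc38a1, Slc38a2, Slc16a10 and Slc36a1.

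**Figure D4:**
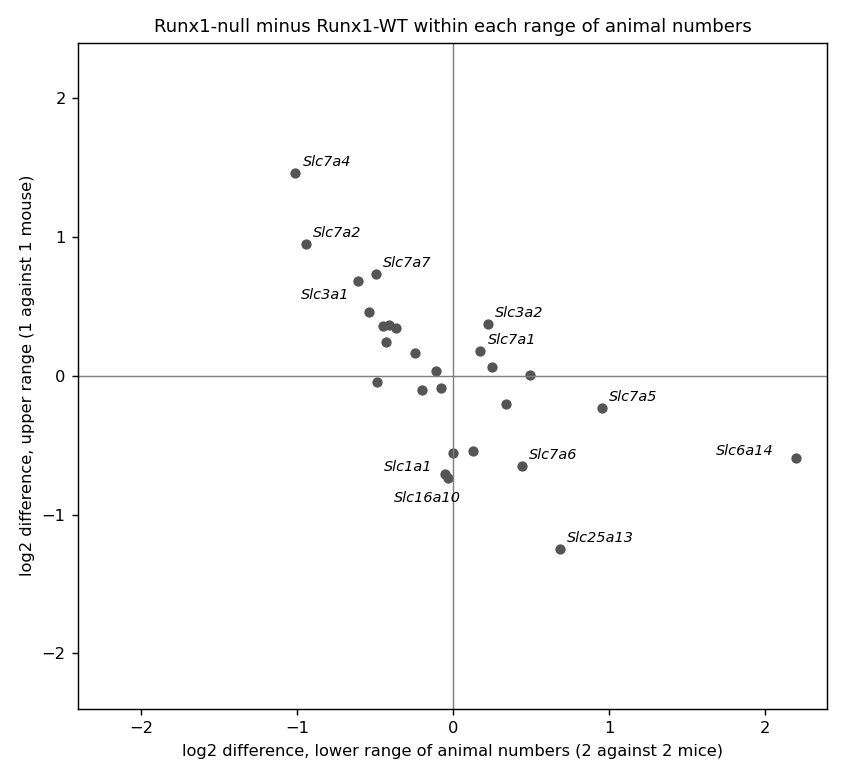
Log2 difference, Runx1-null minus Runx1-WT, of the 27 tested transporter genes (points) from the 4 mice with lower animal numbers (x axis) and from the 2 mice with upper numbers (y axis), with names for differences beyond 0.6 and for Slc3a2 and Slc7a1. The points of 17 genes lie in the upper left or lower right, where the signs differ.

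ATF4, which acts on several transporter genes, had a higher transcript level in every Runx1-null mouse, and the transporters known as its targets had differences of both signs. Atf4 was at 5004, 4726 and 5568 in Runx1-WT mice 1, 2 and 3 and at 6842, 6572 and 7025 in Runx1-null mice 1, 2 and 3 (log2 difference 0.42, standard error 0.08). The groups did not overlap, and limma did not call the gene (adjusted p = 0.9997). Of 9 transporters listed as ATF4 targets 7 were tested, and 4 of them (Slc3a2, Slc7a1, Slc7a5 and Slc6a9) had a log2 difference above 0 and 3 (Slc1a4, Slc1a5 and Slc38a2) below. Their median was 0.18, and 5 of the 20 other tested transporters lay above 0, with a median of -0.16. The 12 regulators known to act on transporter genes were all tested and 0 were called, 8 lay above 0 and 4 below, 3 had an unadjusted p under 0.05 (1.93% of all genes) and 4 did not overlap, all of them higher (2.08% of all genes). Among them were Atf4 and Trib3, an inhibitor induced by ATF4 (log2 difference 1.10, standard error 0.23). Below 0 lay Bach1 (-0.04) and Nfe2l2 (-0.09), which respectively repress and activate antioxidant genes, Slc7a11 among them.

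Genes that sense amino acids for mTORC1 lay on both sides of 0. Of 33 listed, 31 were tested, 0 were called, 16 lay above 0 and 15 below, with a median of 0.01, 3 had an unadjusted p under 0.05 (1.93% of all genes) and 4 did not overlap (5.55% of all genes). Flcn and Fnip1, which encode partners in a complex that activates the lysosomal Rag GTPases, were both lower in every Runx1-null mouse. Flcn was at 3035, 2762 and 2689 for the Runx1-WT mice and 2285, 2347 and 1674 for the Runx1-null mice 1, 2 and 3 (log2 difference -0.44, standard error 0.17). Fnip1 was at 3392, 3480 and 2731 for the Runx1-WT mice and 2033, 2627 and 2504 for the Runx1-null mice 1, 2 and 3 (log2 difference -0.42, standard error 0.16). Sesn2, a leucine sensor that restrains mTORC1, was higher in every Runx1-null mouse (log2 difference 0.68, standard error 0.22), and Lamtor1, which anchors the Rag GTPases, had a difference of 0.08 (standard error 0.07). Limma called none of these genes over all genes (adjusted p = 0.9997 for each).

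Most of the listed transporters outside the 34 genes did not pass the filter. Of 31 further amino acid transporter genes listed, 29 were on the array and 9 passed the filter, 4 above 0 and 5 below, with a median of -0.05, 0 called and 0 at an unadjusted p under 0.05. Slc7a15, at 105 to 128 in the Runx1-WT mice and 75 to 98 in the Runx1-null mice, was lower without overlap (log2 difference -0.49, standard error 0.28). Slc25a44, which carries branched-chain amino acids into mitochondria, had a difference of -0.31 (standard error 0.24). Above 0 lay Slc25a38, a mitochondrial glycine carrier needed for heme (0.13, standard error 0.26), and Slc15a4, a lysosomal carrier of histidine and peptides (0.14, standard error 0.30).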

How the data were processed

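RNA of YFP+ luminal MECs was amplified, hybridized to Affymetrix whole-genome mouse arrays (1 per mouse) and normalized with dChip by the authors, and the deposited values are linear intensities for 45101 probe sets. The dChip version and model are not given in the sources used here. A reference table gave 1 gene symbol for 34958 probe sets, several for 932 and none for 9211. An intensity floor at the 20th percentile of all arrays together (19.335) was applied, then log2 was taken. The brightest probe set represented a gene, and a gene was tested if its mean intensity reached 73.5, the 40th percentile of probe sets. Tests used limma 3.58.1 in R 4.3.3, with lmFit, eBayes with trend and Benjamini-Hochberg adjustment over 12152 genes. The genotypes were littermates, but no source used here ties a mouse to its litter, and the fit has no term for it. Precision is limited by the number of arrays.

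The transporters and lists were chosen with earlier results of these data known. A transporter is given mouse by mouse where its groups do not overlap, its unadjusted p is under 0.05, its difference is the largest of its role, or it is among the 3 brightest (11 genes). Slc7a4, Slc7a11 and others were added after seeing values. The ranking by brightness only chose genes to name, and no level is otherwise compared between probe sets of different genes. Promoter windows are from RefSeq (GRCm38.p6), for 26 of 34 genes. The code was tested on simulated data.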

Additional observations from a re-analysis of the deposited data

How the results depend on the processing

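Limma called 0 of the transporters under every alternative run: median scaling, quantile normalization, adding 16 before log2 instead of the floor, no filter (34 tested), a filter at the 60th percentile (23 tested), the mean of all probe sets, the animal number range as a block, the lower range alone, an adjusted p under 0.1, without each mouse in turn, and the test named in the methods, which gave 1 transporter, Slc3a2, at an unadjusted p of 0.05 or less. The count of transporters above 0 was 7 to 13 and their median -0.15 to -0.01. The count without overlap, with the share of all genes beside it, was 1 with the stricter filter (5.58%) and 3 with no filter (4.95%). It was 2 with median scaling (3.46%), 3 with quantile normalization (5.42%) and 5 with all probe sets (5.71%). In the lower range alone it was 20 (50.5%). Without Runx1-WT mouse 1, 2 or 3 it was 3 (7.92%), 3 (13.9%) and 10 (25.7%). Without Runx1-null mouse 1, 2 or 3 it was 4 (11%), 4 (12%) and 7 (19.9%).

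The sign turned after median scaling for Slc7a7 (0.0065), Slc38a2 (0.010) and Slc38a10 (0.028), with all probe sets for Slc1a5 (0.15) and in the lower range for Slc25a15 (0.13). Of the 27 transporters, 14 kept their sign without each mouse in turn. The others ran from -0.94 to 0.31 (Slc1a1), -0.36 to 0.14 (Slc1a4), -0.24 to 0.56 (Slc25a13), -0.18 to 0.061 (Slc25a15), -0.13 to 0.0076 (Slc38a2), -0.51 to 0.038 (Slc38a7), -0.45 to 0.055 (Slc3a1), -0.076 to 0.46 (Slc43a2), -0.29 to 0.082 (Slc6a6), -0.65 to 0.088 (Slc7a2), -0.67 to 0.28 (Slc7a4), -0.16 to 0.31 (Slc7a6) and -0.33 to 0.056 (Slc7a7). The cause was not tested. The labels give no replicate numbers that pair mice, and the animal number range as a block left Slc3a2 and Slc7a1 at an unadjusted p under 0.05. At that unadjusted threshold, median scaling left 1 transporter, Slc6a14, and the lower range alone gave 6 (Slc38a9, Slc3a1, Slc6a14, Slc7a2, Slc7a5 and Slc7a7), where 1866 of 12152 genes passed it. Precision is limited by 3 mice a group, and for dim transporters by intensities near the floor.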
